A study of Mus musculus with 26 samples.

Results

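Endothelial and vessel wall miRNAs were described in small RNA libraries from CA1, a hippocampal field used in forming memories. They were chosen by name and by their known place of expression: miR-126a for the endothelium, and miR-143, miR-145a and miR-199 for the mural and mesenchymal cells of the vessel wall. The names mmu-miR-126a-3p, mmu-miR-126a-5p, mmu-miR-143-3p, mmu-miR-143-5p, mmu-miR-145a-5p, mmu-miR-145a-3p, mmu-miR-199a-5p, mmu-miR-199a-3p and mmu-miR-199b-3p, given below without their species prefix, were 9 of the 1915 entries of the count table. miR-199a-3p and miR-199b-3p held the same count in 26 of 26 libraries and are 1 measurement, so 8 measurements are described. All 8 passed the filter on low counts, and together they held 0.954% of all counts.

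Endothelial cells line every blood vessel, and pericytes and smooth muscle cells, together called mural cells, wrap them. miR-126 is made from a hairpin inside Egfl7, a gene of the endothelium, and its 3p strand favours vascular endothelial growth factor signalling in mouse and zebrafish by repressing Spred1. miR-143 and miR-145 come from neighbouring hairpins and are known for keeping vascular smooth muscle contractile. miR-199a is a miRNA of mesenchymal cells, and its hairpins lie on the strand opposite to dynamin genes.

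There were 10 libraries from transgenic CamkdeltaC mice given Vorinostat (SAHA), an inhibitor of histone deacetylases, 7 from CamkdeltaC mice given vehicle and 9 from wild type littermates given vehicle. Every group drank its agent with the water for 4 weeks, starting at 2 months of age and ending at 3 months. CamkdeltaC mice serve as a heart failure model; the sources used here do not name the promoter of the transgene or say where it is active. No wild type group on Vorinostat was analysed here. Both sexes were used. Since no label says that libraries come from separate animals, p-values measure only the spread between these libraries, which may be technical.

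The mature sequences are shown because 2 of the entries cannot be told apart by sequence; the seed (bases 2 to 8, which pair with targets) is in capitals. They were taken 5′ to 3′ from RefSeq on GRCm38.p6 for the 4 of 9 entries that matched. miR-126a-5p, miR-143-3p, miR-143-5p, miR-145a-5p and miR-145a-3p are named only.
miR-126a-3p: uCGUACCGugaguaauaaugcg
miR-199a-5p: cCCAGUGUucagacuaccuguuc
miR-199a-3p: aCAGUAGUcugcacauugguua
miR-199b-3p: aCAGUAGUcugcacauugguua
These 4 entries carried 3 seeds. miR-199a-3p and miR-199b-3p share theirs, and their whole sequence.

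The 3 hairpins of miR-199 are shown for the strand they share, the 22 bases of the 3p miRNA in capitals.
Mir199a-1: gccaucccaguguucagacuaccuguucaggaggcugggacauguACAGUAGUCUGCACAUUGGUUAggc
Mir199a-2: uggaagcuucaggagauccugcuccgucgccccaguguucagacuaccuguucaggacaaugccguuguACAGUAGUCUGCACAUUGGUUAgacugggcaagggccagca
Mir199b: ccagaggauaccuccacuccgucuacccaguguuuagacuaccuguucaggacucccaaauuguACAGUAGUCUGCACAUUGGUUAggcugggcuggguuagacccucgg
Reads of the 3p strand therefore cannot be assigned to one of these 3 genes.

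In the GENCODE annotation of GRCm38, Mir126a lies on the plus strand at chr2:26591357-26591429, inside Egfl7 and on its strand, where it overlaps an exon of an annotated transcript. Mir199a-1 lies on the minus strand at chr9:21496495-21496564, opposite an intron of Dnm2. Mir199a-2 lies on the plus strand at chr1:162217814-162217923, opposite an intron of Dnm3, and overlaps an exon of the non-coding gene Dnm3os. Mir199b lies on the plus strand at chr2:32318460-32318569, opposite an intron of Dnm1. Mir143 and Mir145a lie on the minus strand of chromosome 18, with 1301 bases between them and no annotated gene spanning them.

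Total miRNA counts ran from 3892718 to 15693842 in transgenic Vorinostat, from 6014711 to 24767468 in transgenic vehicle and from 585188 to 17628404 in wild type vehicle. The shallowest library of all, wild type replicate 1, and the shallowest Vorinostat library, replicate 8, stood apart from the rest, and the differences between groups are also given without both. By the column names of the count table, 4 of 10 Vorinostat, 3 of 7 transgenic vehicle and 6 of 9 wild type libraries were read on lane 1 and the others on lane 2. Levels are given as CPM, read counts scaled to a common library size of 1000000 with trimmed-mean (TMM) factors. Read counts of different miRNAs are compared as counts of molecules of similar length, although ligation of adapters can favour some sequences.

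Levels in CA1 fell into 2 abundant and 6 low measurements. miR-126a-3p averaged 5907 CPM over the 26 libraries, rank 22 of the 605 miRNAs tested by mean log2 level, and miR-143-3p averaged 3694 CPM, rank 36. The next was miR-199a-3p at 62.3 CPM, followed by miR-126a-5p at 51.1, miR-145a-3p at 38.3 and miR-145a-5p at 33.1 CPM. miR-199a-5p averaged 7.51 CPM and miR-143-5p 2.38 CPM. Within libraries, miR-126a-3p was above miR-143-3p in 24 of 26, the exceptions being wild type replicate 1 and Vorinostat replicate 8. miR-143-3p was above miR-199a-3p in 26 of 26. The order was not fixed among the middle measurements: miR-199a-3p was above miR-126a-5p in 21 of 26 libraries, miR-126a-5p above miR-145a-3p in 19, and miR-145a-3p above miR-145a-5p in 14. miR-145a-5p was above miR-199a-5p in 26 of 26.

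Close relatives were near absent. Both arms of miR-126b, which is read from the strand opposite Mir126a, had 0 reads in all libraries together. miR-145b had 13 reads, miR-199b-5p 159, miR-214-3p 73 and miR-214-5p, from the hairpin 5444 bases beyond Mir199a-2 in Dnm3os, 118. None of these passed the filter, so none was tested. The count of miR-199a-5p, which has 2 loci in the RefSeq table, was an even number in 26 of 26 libraries. Among entries with reads in at least 15 libraries, 11 of the 35 with 2 loci shared this property and 0 of the 663 with 1 locus. How reads with several loci were counted was not given. Halving these counts moved no call, but a common factor in all libraries leaves group differences nearly unchanged, so this could not decide the matter. Such a factor would change the level of miR-199a-5p and its ratio to other miRNAs.

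**Figure D1:**
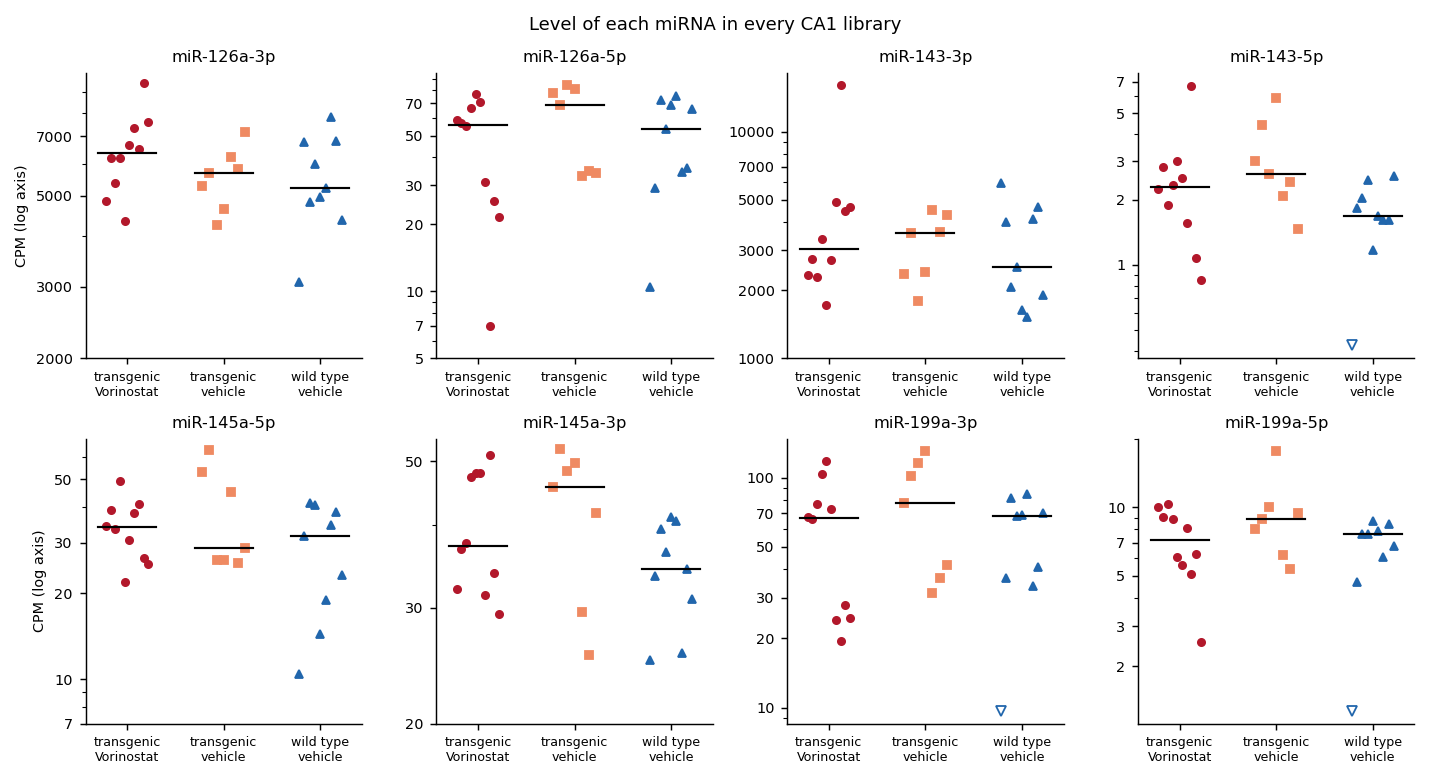
Level of each measurement (CPM, log axis) in every library, with transgenic Vorinostat (circles), transgenic vehicle (squares) and wild type vehicle (triangles) from left to right; lines are medians and open triangles mark 0 reads. Ranges of the 3 groups overlap in all 8 panels, and miR-126a-5p and miR-199a-3p show an empty stretch that runs through every group.

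The genotype was examined by comparing transgenic vehicle with wild type vehicle. No member passed the test, and the ranges of the groups overlapped for all 8. miR-126a-3p, the main endothelial strand, lay at 4250, 5693 and 7185 CPM (lowest, median, highest) in transgenic vehicle and at 3084, 5223 and 7822 CPM in wild type vehicle. The wild type range enclosed the transgenic one. Its log2 difference was 0.01 with a standard error (SE) of 0.17 and a 95% interval from -0.35 to 0.37 (edgeR, adjusted p = 0.994). The other strand of the hairpin, miR-126a-5p, which in mouse is known to act on Dlk1 in endothelial cells, lay at 32.9, 68.9 and 84.1 CPM in transgenic vehicle and at 10.4, 53.3 and 75.3 CPM in wild type vehicle. Its difference was 0.23 (SE 0.38), and 0.09 without wild type replicate 1.

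The mural miR-143-3p lay at 1783, 3583 and 4523 CPM in transgenic vehicle and at 1524, 2520 and 5936 CPM in wild type vehicle. The wild type range again enclosed the transgenic one, and the difference was 0.03 (SE 0.38). Its rare partner miR-143-5p lay at 1.47, 2.64 and 5.92 CPM in transgenic vehicle and at 0, 1.68 and 2.58 CPM in wild type vehicle, and 6 of 7 transgenic libraries were above the wild type mean. Its log2 difference of 0.77 (SE 0.34) was the largest among members, with an unadjusted p of 0.0307 and an adjusted p of 0.98 (edgeR). These values rest on 761 reads in 26 libraries.

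miR-145a-5p, the more studied strand of miR-145, averaged 38.2 ± 15.5 CPM (SD) over the 7 transgenic vehicle libraries and 28.2 ± 11.8 CPM over the 9 wild type ones. miR-145a-3p averaged 41.8 ± 10.4 CPM (SD) over the 7 transgenic vehicle libraries and 34.1 ± 6.05 CPM over the 9 wild type ones. The log2 differences were 0.41 (SE 0.26) for the 5p strand and 0.28 (SE 0.17) for the 3p strand. Neither passed. miR-199a-3p lay at 31.4, 77.6 and 129.7 CPM in transgenic vehicle and at 0, 68.2 and 85.1 CPM in wild type vehicle, a log2 difference of 0.47 (SE 0.45), and of 0.30 without wild type replicate 1. In that library the 0 reads allow a level of up to 6.24 CPM (3 counts; counting error only). miR-199a-5p differed by 0.44 (SE 0.29).

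Across the genotype comparison, 8 of 8 log2 differences were above 0, with a median of 0.35, where 54.4% of the 605 miRNAs tested were above 0, with a median of 0.03. Adjusted p was under 0.05 for 0% of the miRNAs tested, and unadjusted p for 2.15%, which is 13 miRNAs by edgeR and 18 by DESeq2. Without both libraries that stood apart, 7 of 8 were above 0, from -0.08 for miR-126a-3p to 0.70 for miR-143-5p, with a median of 0.26, and miR-143-3p was at 0.18. With lane in the model miR-126a-3p was at -0.05 and miR-143-3p at -0.16. Within lane 1 the 8 differences ran from -0.14 to 0.90, and within lane 2 from -0.095 to 0.575.

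Vorinostat was examined within the transgenic mice. No member passed, and again the groups overlapped for all 8. miR-126a-3p lay at 4350, 6365 and 9448.5 CPM with Vorinostat and at 4250, 5693 and 7185 CPM with vehicle, and 7 of 10 Vorinostat libraries were above the vehicle mean. The difference was 0.21 (SE 0.17; 95% interval from -0.14 to 0.56; edgeR, adjusted p = 0.836). miR-126a-5p, from the other side of the same hairpin, lay at 6.995, 55.9 and 77.1 CPM with Vorinostat and at 32.9, 68.9 and 84.1 CPM with vehicle, and 7 of 10 Vorinostat libraries were below the vehicle mean. The difference was -0.32 (SE 0.37), and -0.19 without Vorinostat replicate 8.

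miR-143-3p lay at 1714, 3046 and 16062 CPM with Vorinostat and at 1783, 3583 and 4523 CPM with vehicle. One library, Vorinostat replicate 8, held the highest value. The difference was 0.49 (SE 0.38) with it and 0.01 without it. miR-143-5p differed by -0.38 (SE 0.32), with 9 of 10 Vorinostat libraries below the vehicle mean and the exception again being replicate 8. miR-199a-3p lay at 19.4, 66.7 and 118 CPM with Vorinostat and at 31.4, 77.6 and 129.7 CPM with vehicle. miR-199a-5p lay at 2.55, 7.18 and 10.4 CPM with Vorinostat and at 5.36, 8.88 and 17.6 CPM with vehicle. For both, the Vorinostat values began and ended lower, with most libraries in the shared range. The differences of the other measurements were -0.17 (SE 0.25) for miR-145a-5p, -0.08 (SE 0.17) for miR-145a-3p, -0.34 (SE 0.44) for miR-199a-3p and -0.36 (SE 0.28) for miR-199a-5p. In all, 2 of 8 were above 0 and 6 below, with a median of -0.25, where 49.3% of all tested were above 0, with a median of -0.01. Without both libraries that stood apart, 1 of 8 was above 0, miR-126a-3p at 0.19, and the others ran down to -0.61 for miR-143-5p, with miR-145a-3p at -0.14. Adjusted p was under 0.05 for 0% of the miRNAs tested and unadjusted p for 3.47%, 21 miRNAs by edgeR and 26 by DESeq2.

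The replicate numbers of the transgenic libraries were taken to pair them, by the check described under processing. That check cannot separate pairing from a split of the libraries into sets of 15 and 11, described below. Same-numbered transgenic libraries were in the same set in 7 of 7 pairs. The contrast was repeated over the 7 pairs with the replicate as a block. This fit called 5 of 567 miRNAs (0.882%), which were miR-379-5p, miR-129-5p and miR-182-5p higher and miR-339-5p and miR-29c-3p lower with Vorinostat. They were named after their values were seen, and none is a member. Unadjusted p was under 0.05 for 147 of the 567 miRNAs in this fit (edgeR), so a low p was common in it. Among members, miR-199a-3p came nearest at -0.47 (SE 0.14; edgeR, adjusted p = 0.0748), followed by miR-126a-5p at -0.57 (SE 0.22; adjusted p = 0.133). miR-126a-3p was at 0.22 (SE 0.12; adjusted p = 0.251). Within lane 1 the 8 differences ran from -0.57 to 0.12, and within lane 2 from -0.77 to 0.62.

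Transgenic mice on Vorinostat were also set against wild type mice on vehicle. Differences were above 0 for 7 of 8 measurements, from -0.09 (SE 0.34) for miR-126a-5p to 0.52 (SE 0.35) for miR-143-3p, with a median of 0.21, where 52.9% of all tested were above 0 and the median was 0.01. miR-143-3p was at 0.04 and miR-126a-5p at 0.037 without Vorinostat replicate 8. Without both libraries that stood apart, 7 of 8 were above 0 and the range was from -0.12 for miR-126a-5p to 0.18 for miR-143-3p. None passed, as for 0% of all tested (unadjusted 3.14%, 19 miRNAs by edgeR and 29 by DESeq2). Within lane 1 they ran from -0.12 to 0.475 and within lane 2 from -0.36 to 0.67. The 3 comparisons share libraries, so their values are not independent of each other: miR-199a-3p, for example, was at 0.47 for genotype and at -0.34 for Vorinostat with the same 7 transgenic vehicle libraries in both. Scaling by library totals alone shifted the median of all miRNAs to -0.14 for Vorinostat. With this scaling miR-126a-3p was at 0.06, miR-143-3p at 0.28, miR-145a-5p at -0.32 and miR-145a-3p at -0.23 in that comparison, each over 1.5 times from its value above, and no member changed sign.

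Ratios between strands of one library need no scaling factor, and 7 of them were compared in the 3 contrasts. None of the 21 passed (exact permutation test, two-sided, smallest adjusted p = 0.993). The log2 ratio of miR-126a-3p to miR-126a-5p averaged 7.34 ± 1.27 with Vorinostat (SD, n = 10), 6.66 ± 0.87 in transgenic vehicle (SD, n = 7) and 6.95 ± 0.88 in wild type vehicle (SD, n = 9), and single libraries ran from 5.66 to 9.83. Between same-numbered transgenic libraries it was higher with Vorinostat in 7 of 7 pairs, by 0.85 ± 0.71 (SD, n = 7 pairs), with an exact permutation p of 0.0156, the smallest that 7 pairs allow, and an adjusted p of 0.0729 over the 7 ratios. The test over pairs was not among the planned tests, and its adjustment covers this 1 contrast only. The widest gap was in replicate 8, at 9.83 with Vorinostat, from 22 reads of miR-126a-5p, and at 7.57 with vehicle. miR-143-3p to miR-145a-5p, the ratio of the 2 neighbouring hairpins, averaged 6.76 ± 0.85 with Vorinostat (SD, n = 10), 6.41 ± 0.65 in transgenic vehicle (SD, n = 7) and 6.77 ± 0.96 in wild type vehicle (SD, n = 9). Between pairs it was higher with Vorinostat in 6 of 7, by 0.51 ± 0.67 (SD, n = 7 pairs; exact permutation p = 0.0312, adjusted p = 0.0729), and so was miR-126a-3p to miR-199a-3p, by 0.69 ± 0.47 (SD, n = 7 pairs; exact permutation p = 0.0312, adjusted p = 0.0729). For miR-143-3p to miR-145a-5p the widest gap was again in replicate 8, at 8.61 with Vorinostat and 6.65 with vehicle. The test over pairs was not repeated without replicate 8. Without both libraries that stood apart, the differences in the first ratio were -0.15 for genotype and 0.40 for Vorinostat, against -0.29 and 0.68 with them. Those of miR-143-3p to miR-145a-5p were -0.07 and 0.15, against -0.35 and 0.35 with them. miR-126a-3p to miR-143-3p, the endothelial to the mural strand, averaged 0.81 ± 0.78 with Vorinostat, 0.85 ± 0.29 in transgenic vehicle and 0.93 ± 0.80 in wild type vehicle. Vorinostat replicate 8 and wild type replicate 1 were the only libraries where this last ratio was below 0.

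The larger differences lay between libraries of the same group. miR-126a-5p was at 53.3 CPM or higher in 15 libraries and at 35.9 CPM or lower in 11, with none between. The same 15 held miR-199a-3p at 65.9 to 129.7 CPM and the same 11 at 41.5 CPM or lower, so both miRNAs split the libraries in the same way. miR-143-3p ran the other way, at 1524 to 3583 CPM in the 15 and at 3598 to 16062 CPM in the 11. The main strand of the first hairpin overlapped between the sets, since miR-126a-3p ran from 4250 to 6682 CPM in the 15 and from 3084 to 9448.5 CPM in the 11. Without both libraries that stood apart, it was at 5825 CPM or higher in the set of 11. Over the libraries then left, with group means removed, its log2 level had r = -0.82 with miR-126a-5p and r = -0.80 with miR-199a-3p. With miR-143-3p it had r = 0.89. miR-145a-5p overlapped too, at 14.5 to 63.4 CPM in the 15 and 10.4 to 45.1 CPM in the 11.

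The split cut through every group. The set of 15 held 6 of 10 Vorinostat, 4 of 7 transgenic vehicle and 5 of 9 wild type libraries, and the set of 11 held 4, 3 and 4. It followed the first principal component of all miRNAs tested, which carried 47.0% of the variance within groups and was positive in 15 of the 15 and in 0 of the 11. It followed the lane in part: 11 of the 15 were on lane 1, and 9 of the 11 on lane 2. It followed the number that each library carries in the column names, since 14 of the 15 were numbered 18 or lower and 9 of the 11 were numbered 20 or higher. In 7 of 7 pairs, same-numbered transgenic libraries were in the same set. Lane, library number and pairing overlap, but only in part. Libraries numbered 16, 17 and 18 were on lane 2 and in the set of 15. Wild type replicates 2 and 9 were in the other set from transgenic replicates 2 and 9. Which of these the split goes with was not tested. In bulk tissue, fewer cells of a type and less RNA per cell cannot be told apart.

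**Figure D2:**
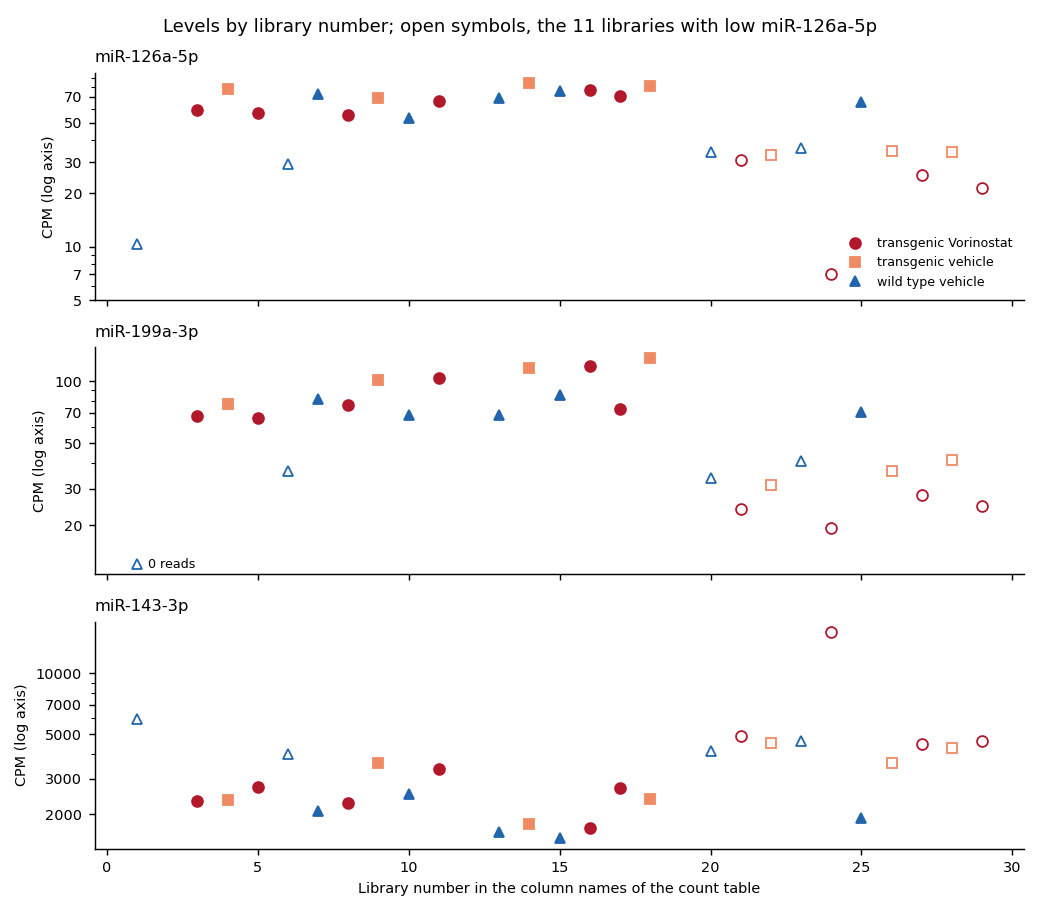
Level (CPM, log axis) of miR-126a-5p, miR-199a-3p and miR-143-3p against the number of each library in the column names, by group; filled symbols are the set of 15 libraries with miR-126a-5p at 53.3 CPM or higher, open symbols the set of 11. The open symbols lie low for miR-126a-5p and miR-199a-3p and high for miR-143-3p, mostly at numbers of 20 and above, in all 3 groups.

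Because the libraries fall into 2 sets, correlations between members were taken within each set, on log2 CPM with group means removed, for 28 pairs each. Points of a set share the split and, in part, a lane, and the sets were drawn from miR-126a-5p itself, which narrows its range. In the set of 15, the neighbouring miR-143-3p and miR-145a-5p varied together (r = 0.82, permutation p = 1.8e-04, adjusted p = 0.00504; rho = 0.78, permutation p = 0.00121, adjusted p = 0.0339), and r was 0.76 without the 2 libraries farthest from the median of miR-143-3p. miR-126a-3p and miR-143-3p, the main endothelial and mural strands, did so too (r = 0.75, permutation p = 0.0012, adjusted p = 0.0168; rho = 0.72, permutation p = 0.00344, adjusted p = 0.0482), with r = 0.70 without the 2 farthest. These were the 2 of 28 pairs past 0.05 in that set, which was drawn after seeing the data. The planned test over all 26 libraries gave r = 0.18 for miR-143-3p with miR-145a-5p (permutation, adjusted p = 0.475, and rho = 0.29, adjusted p = 0.218). Without both libraries that stood apart its r was 0.40 (permutation, adjusted p = 0.0655). For miR-126a-3p with miR-143-3p these were 0.40 (adjusted p = 0.101, and rho = 0.62, adjusted p = 0.00577) and 0.89 (adjusted p = 5.6e-05). The last value pools both sets and so holds the difference between them. In the set of 11 alone this pair had the other sign, at r = -0.45 and rho = -0.48 (permutation p = 0.138 for each). Within lanes its r was -0.15 on lane 1 and 0.55 on lane 2.

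In the set of 11, which holds both libraries that stood apart, 5 of 28 pairs passed by r, 1 of them negative, and 1 passed by rho. That 1 was miR-126a-3p with miR-199a-3p, at r = 0.93 (permutation p = 4.5e-04, adjusted p = 0.0112; rho = 0.89, permutation p = 4.2e-04, adjusted p = 0.0118), and r was 0.71 without the 2 farthest libraries, one of which is wild type replicate 1, with 0 reads of both miR-199a strands. The negative pair was miR-126a-5p with miR-143-3p, at r = -0.86 (permutation p = 8.0e-04, adjusted p = 0.0112; rho = -0.75, permutation p = 0.00999, adjusted p = 0.140) and at r = -0.50 without Vorinostat replicate 8 and wild type replicate 1. The pair of miR-143-3p and miR-145a-5p was at r = 0.10 in this set (permutation p = 0.761; rho = 0.29, permutation p = 0.385) and at 0.55 without Vorinostat replicate 8 and wild type replicate 1. The relation of the set of 15 did not pass among these 11 libraries. Within lanes, whose libraries come from both sets, its r was 0.06 on lane 1 and 0.73 on lane 2.

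No pair of strands of one hairpin passed in the set of 15. miR-126a-3p and miR-126a-5p had r = -0.41 (permutation p = 0.123), miR-143-3p and miR-143-5p r = 0.38 (permutation p = 0.162), miR-145a-5p and miR-145a-3p r = -0.14 (permutation p = 0.628) and miR-199a-5p and miR-199a-3p r = 0.11 (permutation p = 0.689), none past the adjusted threshold, and rho for these pairs was -0.29, 0.46, -0.23 and 0.03. In the set of 11 the first pair was at r = 0.74 (adjusted p = 0.0517 by permutation) and the last at r = 0.85 (adjusted p = 0.0264 by permutation), with rho of 0.62 for each (adjusted p = 0.170 by permutation), and without the 2 farthest libraries r was 0.60 and 0.65. Over all 26 libraries, r was 0.83 for miR-199a (permutation, adjusted p = 1.87e-04). It was -0.24 for miR-126a, 0.00 for miR-143 and 0.17 for miR-145a, none of them past the adjusted threshold. By rho, miR-126a passed too, at -0.52 (permutation, adjusted p = 0.0210). Without both libraries that stood apart, r was 0.58 for miR-199a, -0.82 for miR-126a, -0.46 for miR-143 and 0.01 for miR-145a, and only miR-145a did not pass. Values that pool the 2 sets also hold the difference between them, and the sets were drawn from miR-126a-5p. A pass here therefore does not show how strands vary within a set.

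**Figure D3:**
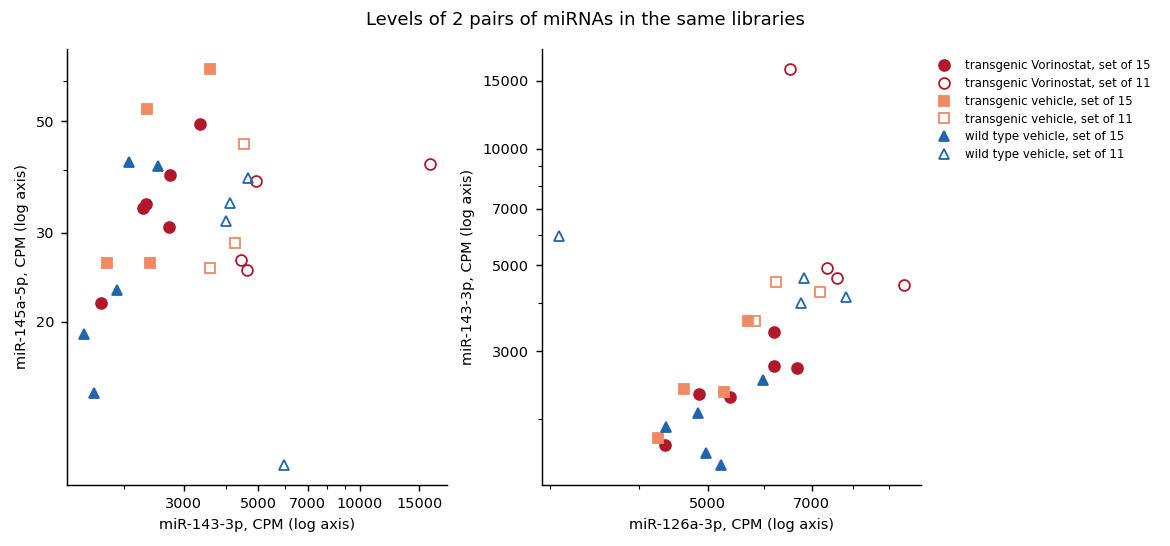
Level of miR-145a-5p against miR-143-3p (left) and of miR-143-3p against miR-126a-3p (right), CPM on log axes, 1 symbol per library, by group; filled symbols are the set of 15 libraries and open symbols the set of 11. Among filled symbols both pairs rise together; Vorinostat replicate 8, at 16062 CPM of miR-143-3p, and wild type replicate 1 lie apart.

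The spread of the members within groups was uneven. The SD of log2 CPM within groups was 1.39 for miR-199a-3p and 0.91 for miR-126a-5p, against 0.32 for miR-145a-3p and 0.34 for miR-126a-3p, and its median over all 605 miRNAs was 0.67. Without both libraries that stood apart, these were 0.78, 0.63, 0.31 and 0.30, with a median of 0.52. The miRNAs whose pattern over the 26 libraries was most like a member's were named by Pearson's r, as a description of libraries that share their depth and the split above. They were miR-99a-5p (0.86), miR-146b-5p (0.80) and miR-181d-5p (0.79) for miR-126a-3p, and miR-27a-5p (0.92), miR-378c (0.92) and miR-532-5p (0.90) for miR-143-3p. For miR-145a-5p they were miR-667-3p (0.77), miR-345-5p (0.74) and miR-331-3p (0.73), and for miR-199a-3p miR-23a-3p (0.98), miR-30c-5p (0.98) and miR-142a-5p (0.97). Without both libraries that stood apart, the 3 nearest to miR-126a-3p were miR-434-5p, miR-379-5p and miR-381-3p, none of them among the first 3.

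The authors' deposited table of normalized log2 values, which holds all 9 entries, gives other results than the counts. In these values miR-199a-3p averaged 8.03 ± 0.71 with Vorinostat (SD, n = 10), 9.88 ± 0.61 in transgenic vehicle (SD, n = 7) and 7.72 ± 1.60 in wild type vehicle (SD, n = 9). All 10 Vorinostat libraries were below the lowest transgenic vehicle library, and 5 of 7 transgenic vehicle libraries were above the highest wild type one. miR-126a-5p averaged 5.81 ± 0.73 with Vorinostat (SD, n = 10), 7.27 ± 0.45 in transgenic vehicle (SD, n = 7) and 6.10 ± 0.91 in wild type vehicle (SD, n = 9), and here too all 10 Vorinostat libraries were below the 7 of transgenic vehicle. Such a lack of overlap held for 13.6% of all miRNAs in the Vorinostat comparison of this table and for 7.57% in the genotype comparison.

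**Figure D4:**
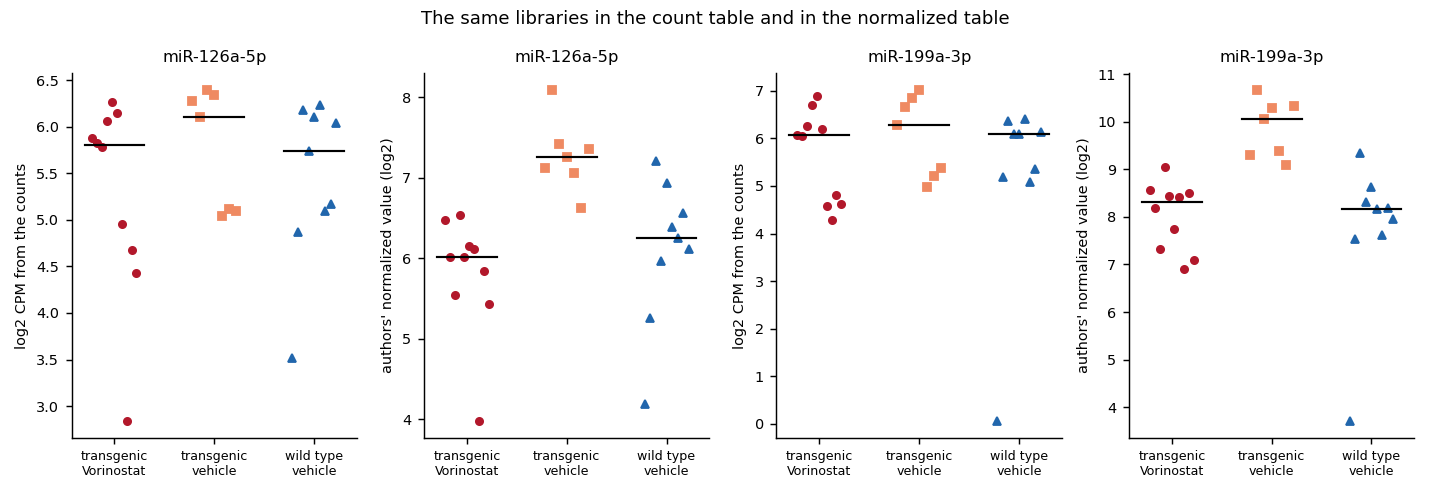
miR-126a-5p and miR-199a-3p in the same libraries as log2 CPM from the counts and as the authors' normalized value (log2), with transgenic Vorinostat, transgenic vehicle and wild type vehicle from left to right and lines at the medians. The groups overlap in log2 CPM, while in the normalized values all 10 Vorinostat libraries lie below the 7 transgenic vehicle libraries.

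With limma on these values, 6 of the 8 measurements passed in each of the 2 comparisons, where 54.5% of the 674 miRNAs of the table passed for genotype and 53.7% for Vorinostat. The median over all miRNAs of the table was 0.19 for genotype and -0.24 for Vorinostat, so differences should be read against these shifts. For genotype the log2 differences that passed were 2.16 (SE 0.51) for miR-199a-3p, 1.175 (SE 0.35) for miR-126a-5p, 0.96 (SE 0.33) for miR-199a-5p, 0.735 (SE 0.23) for miR-143-5p, 0.61 (SE 0.15) for miR-145a-3p and -0.565 (SE 0.21) for miR-143-3p. For Vorinostat they were -1.85 (SE 0.50) for miR-199a-3p, -1.46 (SE 0.34) for miR-126a-5p, -0.78 (SE 0.32) for miR-199a-5p, -0.62 (SE 0.22) for miR-143-5p, -0.37 (SE 0.15) for miR-145a-3p and 0.785 (SE 0.20) for miR-143-3p. Both strands that did not pass were the same in both comparisons: miR-126a-3p was at 0.00 (SE 0.14) and 0.11 (SE 0.14), and miR-145a-5p at 0.09 (SE 0.27) and -0.05 (SE 0.27). Between Vorinostat and wild type, 0.89% of the table passed and no member did.

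The sources used here do not say how the normalized values were made. Across the 26 libraries their r with log2 CPM was between 0.58 for miR-143-3p and 0.91 for miR-199a-5p. Among the members that passed in both comparisons, miR-199a-3p, miR-126a-5p and miR-143-3p also divide the libraries into sets by their counts. miR-143-5p, miR-145a-3p and miR-199a-5p passed in both comparisons too, and their counts overlapped between the sets. Whether the calls go with the split was not tested. No member passed on the counts, so the calls rest on which table is used. The sign was the same in both tables for 7 of 8 measurements in genotype, miR-143-3p being the exception, and for 8 of 8 in Vorinostat. The authors' deposited table of co-expression modules placed miR-126a-5p, miR-143-5p, miR-145a-3p, miR-199a-5p and miR-199a-3p in its turquoise module, with memberships from 0.706 to 0.977. It placed miR-143-3p in blue (0.807), miR-145a-5p in brown (0.877) and miR-126a-3p in yellow (0.895). The module table thus separated both strands of each of the miR-126a, miR-143 and miR-145a hairpins.

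**Figure D5:**
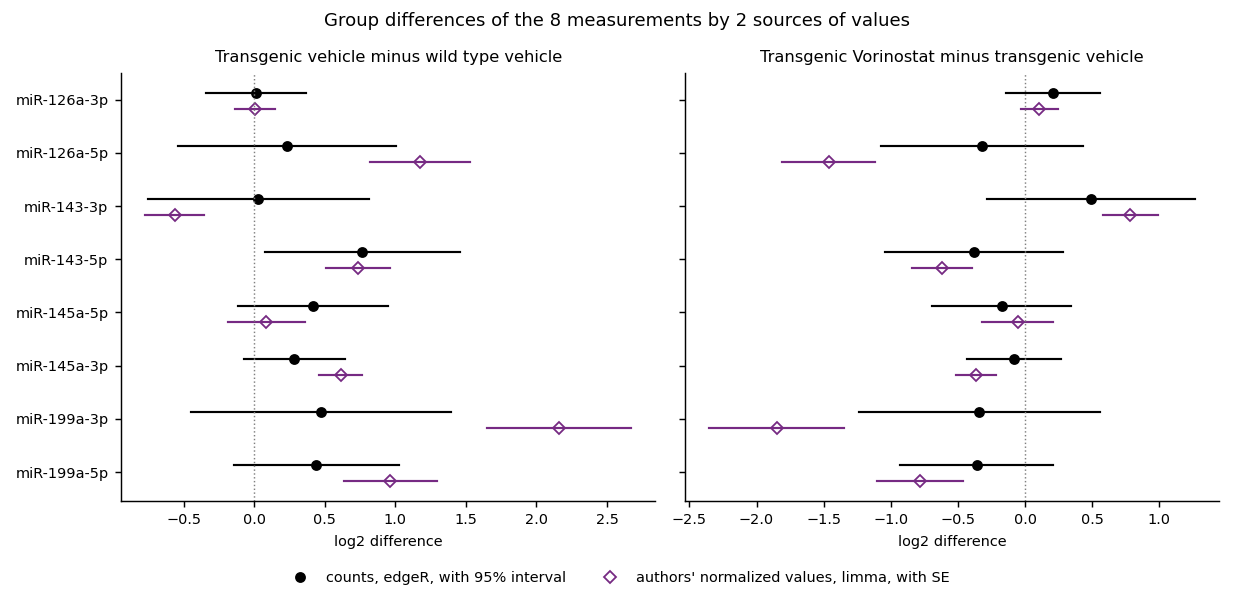
Log2 differences of the 8 measurements for genotype (left, transgenic vehicle minus wild type vehicle) and Vorinostat (right, transgenic Vorinostat minus transgenic vehicle), from counts by edgeR (filled, bars are 95% intervals) and from the authors' normalized values by limma (open, bars are SE). The counts give intervals that include 0 in 7 of 8 cases on the left and 8 of 8 on the right, whereas the normalized values lie farther from 0 for miR-126a-5p and miR-199a-3p.

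Other vessel-linked miRNAs were taken from lists of names, and which cells of CA1 made them was not measured. The endothelial and mural lists had the same highest difference, 1.07 for Vorinostat and 1.65 against wild type, so they appear to share a miRNA. Of 30 other endothelial or angiogenesis miRNAs tested, none passed in either direction in the 3 comparisons, with 20 above 0 and a median of 0.13 for genotype, and 14 above 0 and a median of -0.05 for Vorinostat. The most abundant, miR-218-5p, differed by 0.03 (SE 0.18) for genotype and 0.05 (SE 0.18) for Vorinostat, and miR-139-5p by -0.08 (SE 0.12) and 0.25 (SE 0.12). Of 20 other mural and mesenchymal miRNAs, none passed, with 18 above 0 and a median of 0.24 for genotype, and 7 above 0 and a median of -0.07 for Vorinostat. Their most abundant, miR-26a-5p, differed by 0.15 (SE 0.27) for genotype and -0.03 (SE 0.26) for Vorinostat, and miR-148a-3p by -1.41 (SE 0.59; edgeR, adjusted p = 0.98) and 0.69 (SE 0.56). The level of miR-148a-3p reached 57546 CPM in Vorinostat replicate 8 and 196355 CPM in wild type replicate 1, and was at most 32393, 24112 and 22703 CPM in the other Vorinostat, transgenic vehicle and wild type libraries.

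Small RNA counts hold no protein-coding markers, so the other cells of the dissected tissue could be followed by miRNAs alone. Lists of neuron, oligodendrocyte, choroid plexus, leukocyte and microglia, and erythrocyte miRNAs had 0 calls by edgeR in the 3 comparisons. For genotype, 11 of 14 neuron, 5 of 6 oligodendrocyte, 7 of 11 choroid plexus, 6 of 9 leukocyte and 5 of 9 erythrocyte miRNAs were above 0. For Vorinostat these were 5 of 14, 1 of 6, 6 of 11, 5 of 9 and 7 of 9 in the same order. The most abundant erythrocyte miRNAs, miR-486a-5p and miR-486b-5p, had the same values in all 3 comparisons (each averaged 485 CPM in transgenic vehicle). The erythrocyte counts above and the sum below include both as if they were separate measurements. The summed level of the 10 erythrocyte miRNAs, of interest since blood stays in vessels, ran from 1460 to 2845 CPM with Vorinostat, from 1468 to 2501 CPM in transgenic vehicle and from 1402 to 4255 CPM in wild type vehicle. That of the 14 neuron miRNAs ran from 392497 to 562944 CPM with Vorinostat, from 377163 to 470950 CPM in transgenic vehicle and from 328023 to 466017 CPM in wild type vehicle. That of the 14 choroid plexus and ependyma miRNAs ran from 536 to 912 CPM with Vorinostat, from 602 to 846 CPM in transgenic vehicle and from 449 to 808 CPM in wild type vehicle. These ranges overlapped between groups, and 0 miRNAs of these 3 lists were without reads in all libraries.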

How the data were processed

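Per the labels' protocols, CA1 was dissected under a microscope and frozen, a TruSeq Small RNA kit served for the libraries, and a HiSeq2000 read them. FastQC 0.11.5 and mm10 stand in the submitters' processing notes; the sources used here name no aligner, annotation or counter. Deposited by the authors were unscaled counts per miRNA, a table of normalized log2 values and a table of module membership scores, whose p-values were not used.

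Counts of 26 libraries entered edgeR 4.0.16 (R 4.3.3; quasi-likelihood test; TMM; filterByExpr with a minimum count of 10 and total of 15; 605 miRNAs) in 1 model of 3 groups, two-sided, with Benjamini-Hochberg adjusted p under 0.05 as passing. Ratios used log2(count + 0.5) and exact permutation tests; correlations used 100000 permutations (p of 1e-05 is the smallest they can give). limma 3.58.1 was used on the normalized values and DESeq2 1.42.0 as an alternative. The fits were tested on simulated data. Lists and members were chosen with earlier results of these data known. The miRNAs named are the 9 entries, their relatives, the 3 miRNAs most like each of 4 lead members, and the 2 most abundant of each list, of which those of the vessel and erythrocyte lists are printed.

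Replicate numbers were taken to pair libraries where every pair's deviations correlated over 0.1. This held for Vorinostat and vehicle within transgenic mice (7 of 7, 0.26 to 0.59), not for genotype (4 of 6) or for Vorinostat against wild type (6 of 9). In genotype, replicates 2 and 9, whose libraries lay in different sets of the split, were at -0.20 and -0.38. Differently numbered libraries of one set were not compared, so the check cannot separate pairing from the split. Depth was 585188 to 24767468 counts; floors of 3 counts cover counting error only. Alternatives were other scalings, filters, tools, lane, block and left-out libraries.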

Additional observations from a re-analysis of the deposited data

Results flagged for a closer look

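Values of 45 groups of libraries were examined for a single library far from the others (24 of member levels and 21 of ratios), and 9 were marked, where chance marks about 1 in 20. Vorinostat replicate 8 accounted for 3 of them: miR-143-3p at 16062 CPM, miR-143-5p at 6.68 CPM and a log2 ratio of miR-126a-3p to miR-143-3p of -1.30. Wild type replicate 1, the shallowest library, accounted for 5. There miR-199a-5p was at 0 CPM, where 0 reads allow a level of up to 6.24 CPM (3 counts, counting error only). The log2 ratio of miR-199a-3p to miR-199a-5p was 0 (both at 0 reads, so the ratio is set by the added 0.5). That of miR-126a-3p to miR-199a-3p was 11.5, which with 0 reads of miR-199a-3p also depends on the added 0.5. The ratio of miR-143-3p to miR-145a-5p was 9.02 and that of miR-126a-3p to miR-143-3p was -0.94. Transgenic vehicle replicate 6 held miR-199a-5p at 17.6 CPM. In both libraries that account for most marks, miR-143-3p was above miR-126a-3p, which it was in none of the other 24.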

How the results depend on the processing

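No member passed in any comparison under the alternatives on counts. The calls were 0 under these alternatives, save 5 for Vorinostat with the replicate block over paired transgenic libraries, chosen after seeing the data; the planned replicate block over all libraries gave 0. The authors' normalized values gave 367, 362 and 6 calls for genotype, Vorinostat and Vorinostat against wild type; the cause was not tested. Pairs past 0.05 over all 26 libraries numbered 9 of 28, 19 without both libraries that stood apart, 2 in the set of 15 and 5 in the set of 11 (both chosen after seeing the data).

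Log2 differences that changed sign follow, none past the threshold except with the authors' values; the cause was not tested. For genotype, miR-126a-3p was -0.029 with a mean of at least 10 CPM, -0.039 with the replicate block, -0.054 with lane as a covariate, -0.023 within lane 1, -0.095 within lane 2 and -0.082 without both libraries. miR-143-3p was -0.039 with a mean of at least 10 CPM, -0.565 with the authors' values, -0.16 with lane and -0.14 within lane 1. Within lane 2, miR-126a-5p was -0.008 and miR-145a-5p -0.037. For Vorinostat, miR-199a-5p was 0.064 within lane 1, miR-145a-3p 0.13 within lane 2 and miR-143-3p -0.009 without both libraries. Against wild type, miR-199a-5p was -0.008 with library totals and -0.36 within lane 2, miR-126a-5p 0.011 with lane and 0.12 within lane 1, miR-143-3p -0.12 within lane 1, and miR-145a-5p -0.10 and miR-199a-3p -0.029 within lane 2.

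Leaving out single libraries gave -0.084 to 0.111 for miR-126a-3p and -0.056 to 0.182 for miR-143-3p in genotype. Against wild type it gave -0.244 to 0.037 for miR-126a-5p, -0.049 to 0.236 for miR-199a-3p and -0.054 to 0.173 for miR-199a-5p. The ratio of miR-126a-3p to miR-143-3p ran from -0.31 to 0.03 for genotype and from -0.105 to 0.194 for Vorinostat. It was 0.086 (genotype) and 0.062 (Vorinostat) within lane 1 and 0.19 (Vorinostat) without both libraries; miR-143-3p to miR-145a-5p was 0.15 for genotype within lane 2. r of miR-126a-3p and miR-143-3p was 0.40 over all libraries, -0.15 within lane 1 and -0.45 in the set of 11. Depth limits miR-143-5p and miR-199a-5p most, with 761 and 2416 reads in all.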
